A study of Drosophila melanogaster with 3 samples.

Results

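The genes described here are Hr4 and 9 other nuclear receptor genes of the fly tied to the steroid hormone ecdysone or to receptors that act beside it, namely EcR, usp, Hr3, Hr38, Hr39, Hr78, ftz-f1, Eip75B and ERR. They were read in a chromatin immunoprecipitation (ChIP-seq) study of Dip3 in whole Drosophila melanogaster embryos of mixed sex, aged 0 to 24 h. The study has 1 group of 3 biological replicates, all from the transgenic strain Dip3-GFP, in which Dip3 (gene Dlip3) carries GFP at its C-terminus and was precipitated with anti-GFP. All replicates share this line, the promoter that drives the transgene is not given in the sources used here, and the labels name a control experiment that was not analysed here. The deposited data are lists of enriched regions, and the main one (the IDR set) holds the 3741 regions that passed the authors' irreproducible discovery rate step. An IDR region was assigned to a gene when its summit lay in the gene body or within 2 kb of it, and this gave 31 regions, or 0.829% of the set, in the windows of 9 of the 10 genes. Over the genome, 34.1% of 13945 protein-coding genes had at least 1 IDR summit in such a window. The 10 genes were chosen by these same counts, the signal and the spacing of the regions, with results of these data known, so those values are given as a description, without a test and without reading an enrichment from them.

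Nuclear receptors are transcription factors that carry a DNA-binding domain with zinc fingers and, in most members, a domain that can bind a small lipophilic ligand. In flies, pulses of 20-hydroxyecdysone act through a dimer of EcR and usp, which switches on early genes such as Eip75B. A cascade follows that includes Hr3, Hr4 and Hr39, and ftz-f1 comes on as the hormone level falls. One such pulse occurs in the middle of embryonic development. Dip3 is known as a partner of the Rel-family factor Dorsal, and its MADF domain can bind DNA.

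Hr4, a receptor of the GCNF class that at the onset of metamorphosis is needed to turn down early ecdysone genes and to induce ftz-f1, held 11 of the 31 regions (35.5%). The gene lies on the plus strand at chrX:1941940-2007956 (build dm6), has 9 annotated transcripts from 2 starts, and spans 66.0 kb. Numbered along the gene, 6 of its regions (numbers 2 to 7) lay in the first intron of the longer transcripts, a stretch of 10.39 kb that begins 0.95 kb from the upstream start. Region 6 was the strongest of the 11, regions 4 and 5 were the narrowest, and region 8 was the runner-up, so the DNA under their summits is shown together with that of region 7, which holds a match to the core of the CTCF site. Each line gives the Release 6 reference from 50 bp before to 50 bp after the summit, on the plus strand, with capitals marking the letters CGATA in region 8 and the reverse complement of AGNTGGCGC in region 7, while the other lines held neither. Region 8 also holds the GATA factor word AGATAA on the minus strand, which is left in lower case.
Hr4 region 4, chrX:1947689-1947789: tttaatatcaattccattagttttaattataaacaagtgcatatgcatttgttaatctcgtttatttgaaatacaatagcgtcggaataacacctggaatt
Hr4 region 5, chrX:1948668-1948768: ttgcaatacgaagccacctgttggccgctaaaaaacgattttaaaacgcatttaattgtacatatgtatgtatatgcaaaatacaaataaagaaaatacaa
Hr4 region 6, chrX:1951871-1951971: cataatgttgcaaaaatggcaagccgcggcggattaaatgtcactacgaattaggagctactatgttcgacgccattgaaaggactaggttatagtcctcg
Hr4 region 7, chrX:1953065-1953165: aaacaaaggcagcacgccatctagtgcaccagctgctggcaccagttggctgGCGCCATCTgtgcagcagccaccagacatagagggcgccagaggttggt
Hr4 region 8, chrX:1963881-1963981: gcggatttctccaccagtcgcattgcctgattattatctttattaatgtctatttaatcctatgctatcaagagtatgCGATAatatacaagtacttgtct

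Region 6 of Hr4, 9.98 kb inside the gene, had a signal of 477.7 in the IDR set, where signal is the enrichment value that the authors' caller gave each region. Signal is on another scale in each list, so ranks within a list (1 is the strongest) carry the comparison between replicates. Region 6 ranked 165 in replicate 1, 218 in replicate 2 and 193 in replicate 3, with signals of 188.8, 132.6 and 155.5. It was the strongest Hr4 region in each of the 3 replicates. Region 8, in the second intron 21.99 kb from the start, had an IDR signal of 346.5 and ranked 520, 473 and 202 in replicates 1, 2 and 3. Its signals there were 108.2, 93.4 and 153.0, so it stood closer to region 6 in replicate 3 than in the other replicates.

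**Figure D1:**
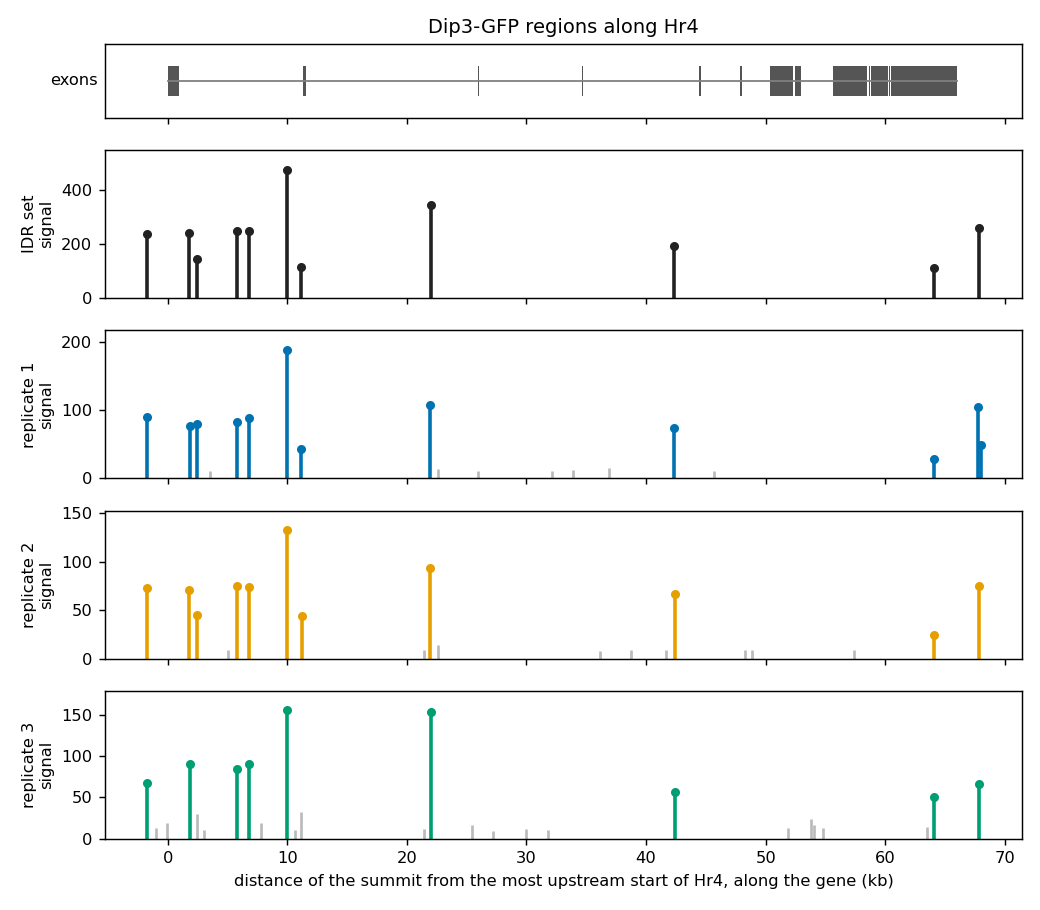
Regions along Hr4. The x axis is the distance of each summit from the upstream start in kb, the y axis is the signal in the IDR set (top) and in replicates 1 to 3, coloured stems with dots are IDR regions or regions among a replicate's 3741 strongest, grey stems are weaker listed regions, and dark boxes are exons. The same 9 positions carry coloured stems in all 3 replicates, with 6 summits of the IDR set in the first intron and the highest stem at 9.98 kb.

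Regions 4 and 5 of Hr4 lay 5.80 and 6.78 kb from the start, with IDR signals of 251.0 and 249.4. Region 4 ranked 866, 707 and 814 in replicates 1, 2 and 3, and region 5 ranked 759, 711 and 700. These 2 regions stayed within a narrow band of ranks in all replicates. They were 155 and 170 bp wide, and regions 8 and 6 were 229 and 262 bp wide, while the commonest width in the set was 390 bp. Of the 31 regions, 5 were under 300 bp wide (16.1%), 4 of them at Hr4, against 19.3% of the other 3710.

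The other regions of the first intron were less even. Region 2 (1.82 kb from the start, IDR signal 241.5) ranked 952, 758 and 696 in replicates 1, 2 and 3. Region 3, 641 bp further on with an IDR signal of 146.8, ranked 913 and 1640 in replicates 1 and 2 but 5594 in replicate 3. Region 7 (11.18 kb, IDR signal 117.4) behaved alike, at ranks 2175 and 1697 in replicates 1 and 2 and 4993 in replicate 3. Regions 3 and 7 were the only Hr4 regions outside the top list of any replicate, a top list being a replicate's 3741 strongest regions, and in both cases that replicate was replicate 3. Downstream, region 9 (42.37 kb, IDR signal 193.7) lay in another intron and ranked 1037, 849 and 1790 in replicates 1, 2 and 3. Region 10 (64.09 kb, IDR signal 113.5) lay in the 3' UTR and ranked 3594, 3715 and 2217, close to the end of the top list in replicates 1 and 2.

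Neither annotated start of Hr4 had a summit within 500 bp. The nearest summits were 1741 bp from the upstream start and 7992 bp from the downstream start at 50.36 kb. The outermost regions of the window were at promoters of neighbouring genes. Region 1 had its summit 108 bp upstream of the start of CG3587, and region 11 had its summit 443 bp upstream of the start of PIG-K, which encodes a subunit of the enzyme complex that attaches lipid anchors to proteins. Region 1 (IDR signal 236.8) ranked 746, 733 and 1280 in replicates 1, 2 and 3, and region 11 (261.5) ranked 556, 704 and 1317. With the gene body alone, 9 regions were left at Hr4.

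The regions of Hr4 lay close together. Its 10 gaps between neighbouring summits ran from 641 to 21726 bp with a median of 3.45 kb, while the median gap over the whole IDR set was 11.91 kb. Of these gaps, 2 were under 1 kb. Summits in the Hr4 window had a density of 1.571 per 10 kb, against 0.206 over all 973 protein-coding genes with windows of at least 25 kb and 0.279 over the whole genome. Among those 973 long windows, 13 were denser than that of Hr4. The signal of the 11 Hr4 regions had a median of 241.5, against 146.5 for the 20 regions of the other receptor genes and 140.7 for the rest of the set.

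By count, 11 or more IDR summits were found at 3 protein-coding genes (0.0215% of all). These were shn, a zinc finger factor gene of the Dpp pathway, with 14, and tara and Hr4 with 11 each. The top lists of replicates 1, 2 and 3 held 12, 11 and 9 regions at Hr4, a mean of 10.67 ± 1.53 (SD, n = 3). These count listed regions rather than distinct sites, since replicate 1 listed regions at both 67.79 and 67.99 kb, beside region 11. In replicates 1 and 2 a single gene had more top-list regions than Hr4, and in replicate 3 there were 6 such genes. The share of protein-coding genes with at least 1 top-list region was 31.6%, 33.2% and 34.4% in the 3 replicates.

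Genes with a pattern like that of Hr4 were taken as the 5 with the smallest distance to it over the number of IDR summits, the window length and the summed signal (each on a log scale, in units of its SD over protein-coding genes with a summit). Hr4 had 11 summits and a summed IDR signal of 2635.8 in a window of 70.0 kb. The nearest was sbb (distance 0.783), with 10 summits and a summed signal of 1644.2 in 83.1 kb. Raf, the kinase of the Ras pathway, came next at 0.786, with 9 summits and 2583.3 in 52.4 kb. The list went on with ush, a cofactor of GATA factors (distance 0.878, 9 summits, summed signal 3918), shn (0.925, 14 summits, 2002.7) and tara (0.93, 11 summits, 1980.2). None of the 5 is a nuclear receptor gene.

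**Figure D2:**
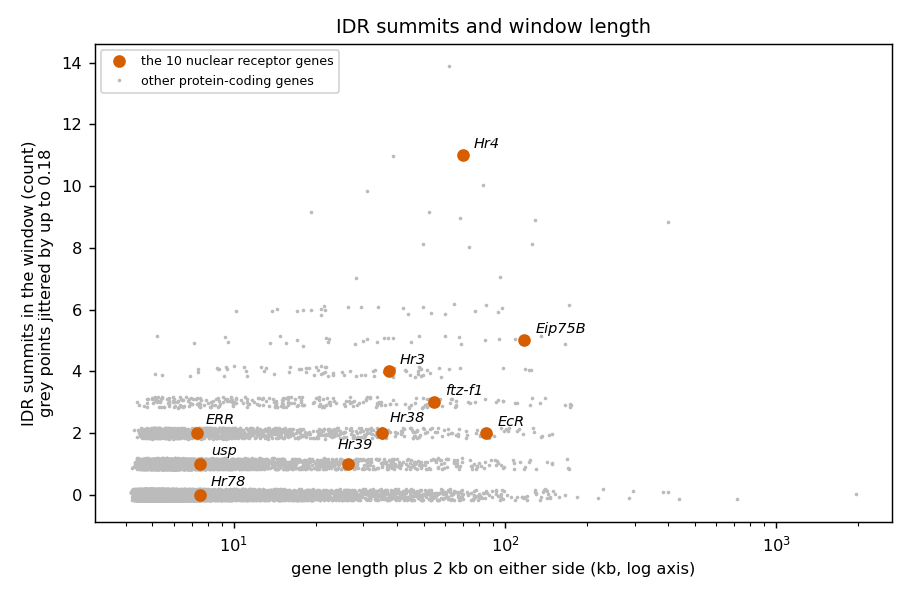
Number of IDR summits (y axis, count) against the length of the gene plus 2 kb on either side (x axis, kb, log scale) for protein-coding genes, the 10 receptor genes in orange and named, the others as grey points spread slightly in height. Hr4 stands at 11 summits, with 1 gene above it, while EcR and Eip75B have 2 and 5 summits in windows longer than that of Hr4.

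The number of summits differed with gene length, from a mean of 0.38 per protein-coding gene with a window under 10 kb to 1.53 at 100 kb or more, and the receptor genes differ widely in length. All 7 receptor genes with a window of at least 25 kb had an IDR summit, against 52.5% of the 973 genes of that class. Their median was 3 summits, against 1 for the class. Of the 3 receptor genes with shorter windows (usp, ERR and Hr78), 2 had a summit, against 32.7% of 12972 genes. The density over all 10 windows was 0.691 summits per 10 kb, and 0.528 without Hr4, against 0.279 over the genome. EcR alone, at 0.235, was below the genome value among the genes with a summit. It was above the 0.206 over the 973 genes with windows of at least 25 kb, the class it belongs to.

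**Figure D3:**
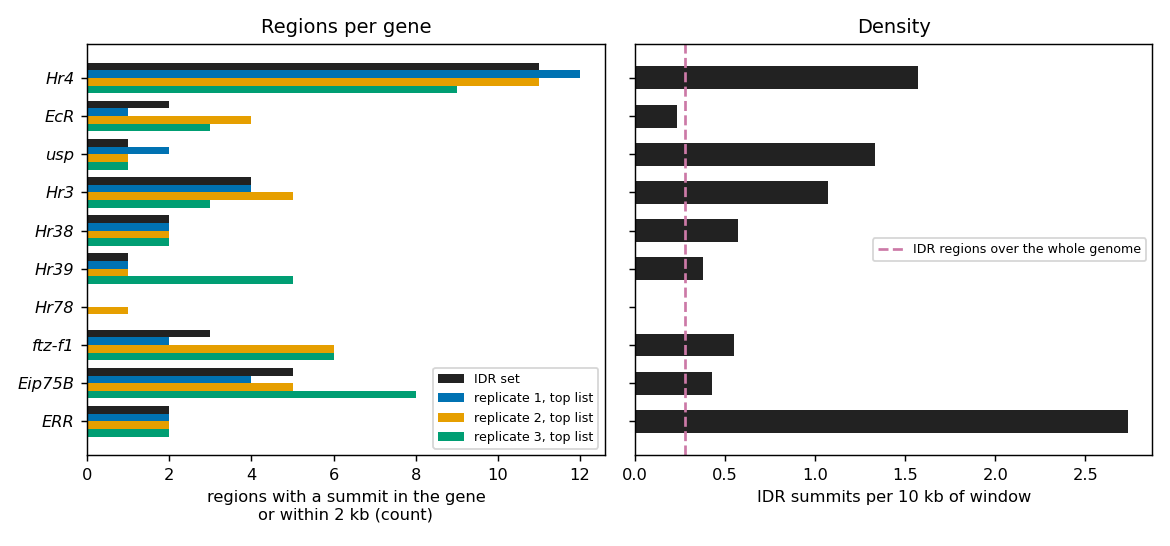
Left, regions per receptor gene (x axis, count of regions with a summit in the gene or within 2 kb) in the IDR set and in the top list of each replicate. Right, IDR summits per 10 kb of window, with the value over the whole genome as a dashed line at 0.279. Hr4 has the longest bars on the left, with 11 regions in the IDR set and 12, 11 and 9 in the replicates, and the short gene ERR has the highest density, 2.736.

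Eip75B (E75), an early ecdysone gene whose product binds haem and in flies restrains the activity of Hr3, lies on the minus strand at chr3L:17950953-18064696 and has 7 annotated starts. At 113.7 kb it is the longest of the 10 genes, and its 5 IDR regions made it the runner-up by count, at 0.425 summits per 10 kb. Its strongest region, number 4, had an IDR signal of 328.6 and ranked 411, 582 and 345 in replicates 1, 2 and 3. The summit lay 11 bp inside the start of the transcript Eip75B-RC, 64.89 kb from the most upstream start. Among the 7 starts this was the one with an IDR summit within 500 bp. The DNA under regions 1 and 2 is shown because region 1 is the one that the replicates disagree on most and region 2 holds the CTCF core. Capitals mark the letters GAGAG in region 1, where matches overlap, and AGNTGGCGC in region 2.
Eip75B region 1, chr3L:18061943-18062043: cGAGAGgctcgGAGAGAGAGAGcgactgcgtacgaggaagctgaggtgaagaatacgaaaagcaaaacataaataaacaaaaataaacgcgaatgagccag
Eip75B region 2, chr3L:18019775-18019875: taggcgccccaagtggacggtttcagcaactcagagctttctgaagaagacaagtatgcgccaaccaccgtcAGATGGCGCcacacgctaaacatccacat

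Region 1 of Eip75B, 540 bp upstream of the start of transcript Eip75B-RE, had an IDR signal of 145.3. It ranked 372 in replicate 3, with a signal of 121.1, and 23222 in replicate 2, with a signal of 9.3, and replicate 1 did not list it. The region therefore rests on replicate 3. A region of this kind, ranked 500 or better in replicate 3 and past 20000 or unlisted in both other replicates, was found at 3 of the 3741 IDR regions. The others were in spen and at Dlip3, the gene of the tagged protein.

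The remaining Eip75B regions lay in introns. Region 2 (44.87 kb from the upstream start, IDR signal 186.1) ranked 2235, 1325 and 966 in replicates 1, 2 and 3. Region 5 (76.41 kb, 183.4) ranked 2614, 1693 and 605. Both were thus strongest by rank in replicate 3 and in the top list of every replicate. Region 3 (55.57 kb, 94.2) ranked 2990, 6929 and 2695, outside the top list of replicate 2. Beyond the IDR set, the top lists of replicates 2 and 3 held 2 and 3 further regions at Eip75B, and that of replicate 1 held none.

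**Figure D4:**
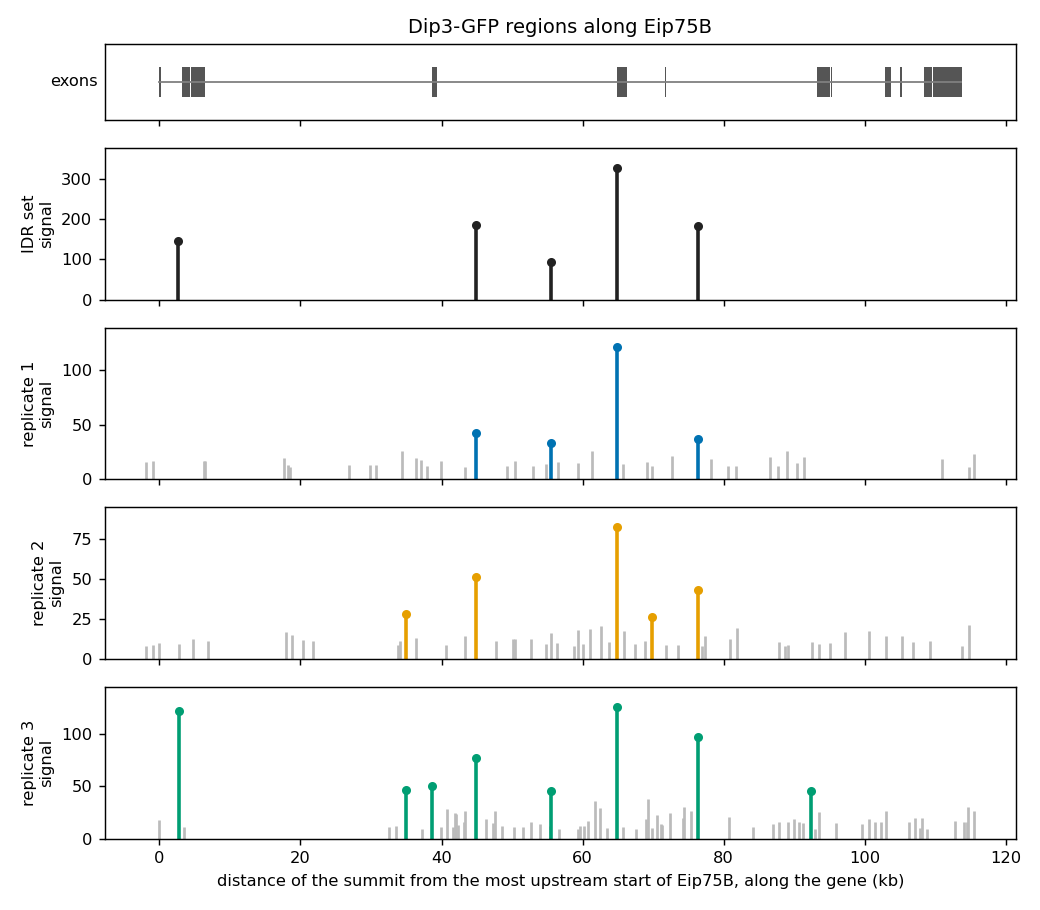
Regions along Eip75B. The axes and symbols are those of the plot of Hr4, with distance from the most upstream start in kb on the x axis and signal on the y axis. The stem at 64.89 kb is the highest in the IDR set and in all 3 replicates, and the stem near 2.70 kb is tall in replicate 3 alone.

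The receptor pair itself carried fewer regions than Hr4, 2 at EcR and 1 at usp. Protein-coding genes with windows of 50 to 100 kb, the class of EcR, had a median of 1 summit. Those with windows under 10 kb, the class of usp, had a median of 0. EcR lies on the minus strand at chr2R:6087873-6169087 and spans 81.2 kb with 4 starts. It held 2 IDR regions. The stronger, number 2, had a signal of 242.8 in an intron 17.83 kb from the upstream start and ranked 727, 892 and 804 in replicates 1, 2 and 3. Region 1 of EcR, with a signal of 104.0, lay 297 bp upstream of the start shared by EcR-RD and EcR-RE. It ranked 3509 in replicate 2 and 10903 in replicate 3 and was not listed in replicate 1. So 1 EcR region was strong throughout, and the one at a start was not. The pooled list, which extends below the IDR threshold, held 30 regions at EcR, against 18 at Hr4, of which 2 and 11 were IDR regions.

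The gene usp encodes the fly homologue of the vertebrate retinoid X receptors. It spans 3.5 kb on the minus strand at chrX:2038798-2042311, and the gene Actn overlaps its window. Its single IDR region had a signal of 201.3 and ranked 720, 1182 and 1646 in replicates 1, 2 and 3. The summit lay 166 bp upstream of the start of usp-RA, inside the 5' UTR of the longer transcript usp-RB. The region was in all 3 top lists and may belong to usp or to Actn, which these lists cannot tell apart.

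Hr3, a receptor of the ROR class that activates ftz-f1 in prepupae, had the strongest region of all 10 genes. The gene spans 33.4 kb on the minus strand at chr2R:10203995-10237348 and held 4 IDR regions, all in introns, at a density of 1.071 per 10 kb. Region 4, 17.27 kb from the upstream start, had an IDR signal of 746.8, rank 68 of 3741. It ranked 87, 63 and 72 in replicates 1, 2 and 3, with signals of 260.8, 235.3 and 244.8. No other region of the 10 genes ranked better than 165 in any replicate. The genes CG12912 and CG46321, which overlap Hr3, also cover this summit.

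The other regions of Hr3 fell off in steps. Region 1 (6.50 kb, IDR signal 227.1) ranked 742, 902 and 1047 in replicates 1, 2 and 3. Region 2 (11.64 kb, 133.1) ranked 1862, 2358 and 3552. Region 3 (16.65 kb, 93.9), the weakest of the 31 by IDR signal, ranked 2294, 2953 and 8640. The order of the 4 regions was the same in each replicate. None of the 3 annotated starts of Hr3 had a summit within 500 bp, the nearest being 2248 bp away.

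The gene ftz-f1 encodes a partner of the segmentation protein Fushi tarazu in early embryos and, from a later transcript, a competence factor for the prepupal ecdysone response. It lies on the minus strand at chr3L:18750607-18801309, spans 50.7 kb, and held 3 intronic IDR regions with signals of only 99.3 to 106.2. Region 2, the strongest, ranked 1535 and 2027 in replicates 2 and 3 and was not listed in replicate 1. Region 3 ranked 3112, 2384 and 2694 in replicates 1, 2 and 3 and was the one in every top list. Region 1 held ranks 3021, 2961 and 3773 in replicates 1, 2 and 3, the last of them just past the end of the top list. None of the 3 starts had a summit within 500 bp. The top lists of replicates 1, 2 and 3 held 2, 6 and 6 regions at ftz-f1 (4.67 ± 2.31, SD, n = 3), so the low value was that of replicate 1. In replicate 3, 2 of the 6 overlapped each other.

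Hr39, a relative of ftz-f1 that is required in the female reproductive glands, lies on the plus strand at chr2L:21237250-21259675. Its single IDR region had a signal of 143.8, with the summit 74 bp upstream of the start that all 4 transcripts share. It ranked 2272 in replicate 1, 4117 in replicate 2 and 964 in replicate 3, and so missed the top list of replicate 2. The top lists of replicates 1, 2 and 3 held 1, 1 and 5 regions at Hr39. The high value was that of replicate 3, where 2 of the 5 overlapped each other. The region of replicate 2 was not the IDR region but lay 23.75 kb from the start.

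Hr78, an orphan receptor of the TR2/TR4 class, was the gene without an IDR region. It spans 3.5 kb on the minus strand at chr3L:21494019-21497494. Its strongest region in the pooled list had a signal of 67.5 and rank 5006, below the lowest IDR signal of 85.1, with the summit 48 bp inside an annotated start. This region ranked 6227, 3167 and 6815 in replicates 1, 2 and 3, so replicate 2 alone had it in its top list. The nearest IDR summit lay 10.18 kb from the gene, nearest to the start of Glg1.

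The remaining pair, Hr38 and ERR, held 2 regions each. Hr38, a receptor of the NR4A class that can pair with usp, spans 31.1 kb on the minus strand at chr2L:20683462-20714588. Region 1 of Hr38 (IDR signal 141.1) lay 666 bp upstream of its start and ranked 1992, 1544 and 2470 in replicates 1, 2 and 3. Region 2 (147.7) lay beyond the other end of the gene, 107 bp upstream of the start of Cen, and ranked 1660, 1483 and 3009. Both were in every top list, and neither was inside Hr38 itself.

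ERR, the estrogen-related receptor that in mid-embryos turns on genes of sugar metabolism, spans 3.3 kb on the minus strand at chr3L:8183361-8186671. Its region 1 (IDR signal 316.2) ranked 497, 312 and 775 in replicates 1, 2 and 3. The summit lay 180 bp upstream of the start of ERR-RA and 6 bp upstream of the start of Atg18a, an autophagy gene. Region 2 (161.2) lay 221 bp upstream of the start of ERR-RB and ranked 1842, 2817 and 987. Both starts of ERR thus had a summit within 500 bp, in every top list. Over all 10 genes 6 of 28 annotated starts had one. The share of all protein-coding starts with one is not given, so this count is not read as high or low.

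**Figure D5:**
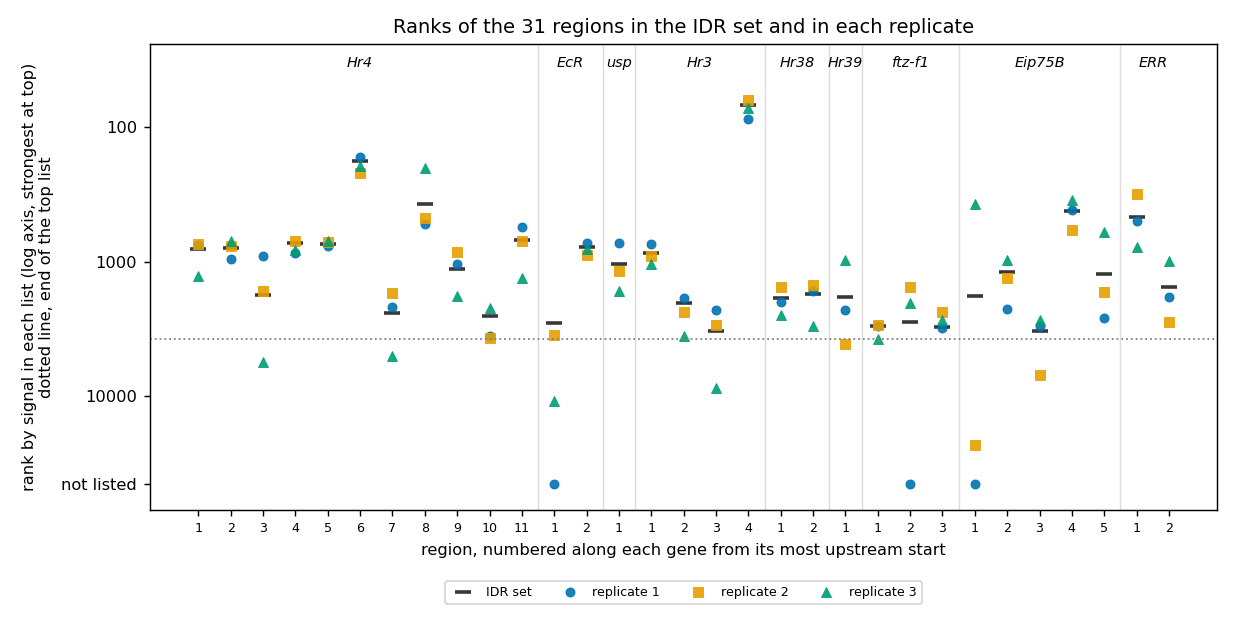
Rank of each of the 31 regions (x axis, numbered along each gene) in the IDR set and in each replicate (y axis, log scale, strongest at the top, unlisted regions at the bottom). The dotted line is the end of the top list at rank 3741. Hr3 region 4 is the highest in every list, and the symbols of Eip75B region 1 lie farthest apart.

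Of the 31 regions, 22 (71.0%) were in the top lists of all 3 replicates, against 58.7% of the whole IDR set. The IDR set consists of the 3741 strongest regions of the list called on the pooled replicates, so part of this overlap is built in. Taken singly, the replicates had 28, 28 and 26 of the 31 in their top lists (90.3%, 90.3% and 83.9%), against 81.5%, 85.2% and 77.6% of the whole set. Of the 9 regions that failed somewhere, 2 were at Hr4, 2 at ftz-f1, 2 at Eip75B, and EcR, Hr3 and Hr39 had 1 each. There were 3 regions that a replicate did not list at all (EcR region 1, ftz-f1 region 2 and Eip75B region 1). The replicate was replicate 1 each time. Over the whole IDR set, 336 regions (8.98%) were unlisted in some replicate. Spearman's coefficient of the ranks over the regions listed in both was 0.903 for replicates 1 and 2 (28 regions), 0.613 for replicates 1 and 3 (28) and 0.60 for replicates 2 and 3 (31). These coefficients are a description across regions that share their libraries. Replicate 3 also had more regions with q up to 0.01, namely 8812, while replicates 1 and 2 had 2480 and 3226, and the part of this in the differences above was not tested.

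Most of these regions were away from starts. Of the 31 summits, 9 (29.0%) lay within 500 bp of any protein-coding start, against 57.4% of the IDR set. Introns held 20 (64.5%), against 29.5% of the rest of the set. The remaining summits were 1 in a 3' UTR and 1 between genes, with 0 in coding exons. The windows take in whole long genes, and the part of this in the intronic share was not tested. Signal at the 9 promoter summits had a median of 201.3, against 149.5 for 2138 other promoter summits. At the 22 summits elsewhere it was 165.1, against 130.2 for 1572 others.

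Sequence motifs were counted within 50 bp of each summit, on both strands. The nuclear receptor half-site AGGTCA was in 0 of the 31 windows and in 1.98% of all IDR windows. Within 100 bp of the summit it was in 2 of the 31 (6.45%) and in 4.01% of all IDR windows, so its order against the whole set turned with the window. The longer monomer sites TCAAGGTCA and AAAGGTCA, and the inverted-repeat ecdysone response element, were also in 0 of the 31, against 0%, 0.267% and 0% of all IDR windows. A count of 0 says only that these letters were not in these windows. The GAGA factor word GAGAG was in 4 (12.9%), against 9.97% of all IDR windows, and CGATA, the core bound by BEAF-32, was in 5 (16.1%) of them and 20.4% of all. The DREF element TATCGATA, in which CGATA is contained, was in 0, against 2.89%. Both counts moved with the window. Within 25 bp GAGAG was in 2 (6.45%, against 4.57% of all IDR windows) and CGATA in 2 (6.45%, against 10.5%). Within 100 bp GAGAG was in 8 (25.8%, against 21.5%) and CGATA in 6 (19.4%, against 33.3%). Within 50 bp, the GATA factor word AGATAA was in 1 of the 31 (3.23%), region 8 of Hr4, against 6.84% of all IDR windows. The Zelda word CAGGTA, the AP-1 site TGANTCA, the E-box CACGTG and Ohler motif 7 were each in 0 of the 31, against 2.06%, 2.51%, 0.962% and 4.04%. At 100 bp the Zelda word, the GATA factor word and Ohler motif 7 were in 2 of the 31 each (6.45%), against 4.12%, 12.5% and 8.21%. The 4 regions with GAGAG within 50 bp were 1 at ftz-f1 and 3 at Eip75B, and Hr4 had none at that distance.

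The core of the CTCF insulator site, AGNTGGCGC, was searched after the sequences had been read, so its count is a description of these regions and no more. It was in 4 of the 31 windows (12.9%), against 50 of the other 3710 (1.35%). The carriers were regions 7 and 10 of Hr4, region 2 of EcR and region 2 of Eip75B, and all 4 were among the 22 summits away from promoters, where 26 of 1572 other summits (1.65%) held it. Within 25 bp of the summit it was in 3 of the 31 (9.68%), against 0.674% of the others, and within 100 bp in 5 (16.1%), against 2.21%. The windows had a median GC content of 37.6%, and those of Hr4 one of 40.6%, against 35.6% for the rest.

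Other genes of the hormone system were read from lists chosen with earlier results known, each beside the 34.1% of all protein-coding genes with a summit in their window. Of the 11 other nuclear receptor genes 2 (18.2%) had one. At Hr96, a receptor of lipid metabolism and xenobiotic response, the strongest had a signal of 440.1 and lay 68 bp upstream of the start of EMC6. At Hr51 it had a signal of 285.5 and lay nearest to unc-5. The early gene Eip78C, svp, tll, kni, knrl, eg, dsf, Hnf4 and Hr83 had 0 regions.

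Among 15 matched genes for synthesis, transport and breakdown of ecdysone, 3 (20%) had a summit. Ptth, the brain hormone that triggers ecdysone production, had one with a signal of 282.9, which lay 68 bp upstream of the neighbour cold. The summit at the sterol carrier gene Npc2a (113.2) was at the promoter of Got2, and that at the ecdysone importer gene Oatp74D (86.4) lay 182 bp upstream of its own start. The steroidogenic enzyme genes nvd, spo, spok, sro, dib, sad and shd, and the inactivating enzyme gene Cyp18a1, had 0 regions.

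Of 20 matched ecdysone response genes that are not receptors, 9 (45%) had a summit. The strongest were at br, a zinc finger factor gene of the early response (signal 330.5), Eip63E, a cyclin-dependent kinase gene (313.4), and ImpL2, an insulin-binding protein gene (194.6). The summit at br lay nearest to the start of Mur2B, 693 bp upstream of it. That at ImpL2 lay nearest to the start of CG46460, 1049 bp upstream of it. ImpL3, annotated as Ldh, encodes lactate dehydrogenase, a target of ERR in the embryo, and held 3 regions with signals up to 142.4, the strongest 99 bp upstream of its start. The classical early gene Eip74EF had 0 regions in a window of 64.7 kb.

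Cofactor genes had the highest share of the 4 lists, 12 of 16 (75%). The strongest summit, at Alien, a corepressor gene, had a signal of 488.7 and lay at the promoter of CG18661. Smr, a corepressor that binds EcR, held 3 regions with signals up to 320.2, the strongest of them in an intron. Hsp83, a chaperone gene, held 2 with signals up to 293.9, and Sin3A, a histone deacetylase scaffold gene, held 4 with signals up to 259.4. Single windows often take in a neighbour's promoter, as at Alien, and whether a region acts on the listed gene was not tested.

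The edges of the 2 criteria were as follows. The weakest regions inside the IDR set were Hr3 region 3 (93.9) and Eip75B region 3 (94.2). Just below the threshold lay 2 regions at ftz-f1 (signals 83.4 and 80.5, pooled ranks 3829 and 3988), followed by 1 at Hr39 (80.0, rank 4016). At Hr4 the strongest region below it had a signal of 64.4 (rank 5321) and overlapped region 2. By distance, the farthest summit counted was 1851 bp outside Hr4 (region 11), and the nearest summit not counted was 2121 bp from EcR, nearest to the start of Ars2, with a signal of 167.9.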

How the data were processed

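The deposited dm6 region lists of 3 replicates of 1 group (30000 regions each), of the pooled replicates (23524 regions) and of the IDR set (3741 regions) were read. Per the file headers, each replicate list was called on that replicate's alignments with 1 further file that all share, and the IDR set was made from the 3 lists and the pooled list. The signal (enrichment value) and the −log10 q value of each region are those the authors deposited, and q served only for the counts at 0.01. The sources used here give neither aligner, caller, versions and IDR threshold nor sequencing depth, so no interval that needs depth is given.

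Positions are on dm6, from 1, with Ensembl release 115 (BDGP6 patch 54) as annotation and the RefSeq Release 6 sequence. Python 3.11.15, pandas 2.3.3 and numpy 2.4.6 were used, and counting and overlap code was tested on simulated data. An overlap needed 1 bp. Summits within 500 bp of a protein-coding start were promoter summits. The members and gene lists were chosen with earlier results of these data known. The text names all members, every Hr4 region, the strongest region of each other member and those in all 3 top lists, up to 4 genes per list by signal and the 5 genes most like Hr4. Other genes and regions named (list genes with 0 regions, spen, and regions below the IDR threshold, unlisted in a replicate or just outside a window) were chosen after their values were seen. Of 65 listed symbols, 62 were matched, 4 of them through a synonym (MsrA for Eip71CD, Cth for Eip55E, Ldh for ImpL3 and alien for Alien). The dm3 lists and signal tracks were not used. No test was made, since there is 1 group.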

Additional observations from a re-analysis of the deposited data

How the results depend on the processing

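With a top list of the 1000 strongest regions, 9 of the 31 regions were in all 3 replicates, against 22 with 3741. The share of all IDR regions at the cut of 1000 is not given, so the fall is not read as particular to these regions. Leaving out each replicate in turn meant keeping IDR regions in the top lists of the other replicates. This left 23 to 26 of the 31 summits, 8 to 9 genes of 9, and 7 to 8 promoter summits of 9. By this rule, the regions in both remaining top lists are the same 23 to 26. The gene body alone gave 25 summits in 7 genes and a window of 5 kb gave 34 in 9. The upper 50% of the set by signal gave 22 in 8 genes. The shares of all protein-coding genes in these altered settings are not given, so the gene counts are not read as high or low. Counts per gene are not given for the top list of 1000. In each of the other settings Hr4 had the most regions, 9 to 13. Single genes moved more. Hr39 had 0 regions without replicate 1 or 3, Eip75B had 3 without replicate 1 or 3, EcR had 1 without any one replicate, ftz-f1 had 1 without replicate 2, and in the upper 50% ftz-f1 had 0. Motif counts moved with the window, and the half-site AGGTCA went past its share of the whole set within 100 bp (2 of 31). No paired analysis was possible because the study has 1 group. Unknown depth limits what a missing region shows.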
